A study of Mus musculus with 9 samples.

Results

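Ribosome biogenesis and RNA polymerase I genes were followed in mouse tibialis anterior (TA) muscle in which the number of nuclei per muscle fiber had been reduced. The set was chosen by gene symbol, with the fall of *Rcl1* in these data already known. The rule takes every gene symbol made of Nop, Utp or Rrp and a number, the subunits Polr1a to Polr1h, and *Rrs1*, *Rcl1*, *Pes1*, *Bop1*, *Wdr12*, *Fbl*, *Dkc1*, *Ncl*, *Npm1*, *Gar1* and *Nhp2*. The rule found 41 genes, each with 1 row on the array, among 22206 gene rows in all, and each of the 41 was tested.

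Ribosomes are built in the nucleolus. RNA polymerase I transcribes 1 long precursor of ribosomal RNA, small nucleolar ribonucleoproteins (snoRNPs) modify it, and the small subunit processome and the assembly factors of the 60S subunit cut and fold it into the small (40S) and large (60S) ribosomal subunits. In skeletal muscle the making of ribosomes is known to accompany growth, and the transcripts of these factors are made in muscle fiber nuclei as well as in the other cells of the tissue.

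Muscle was taken at P28 from 3 groups of 3 mice, with 1 Clariom S array per mouse. In Δ1w mice (D1w in the labels) tamoxifen was given at P0, and in Δ2w mice (D2w) at P6. In both, *Pax7*CreER, a recombinase driven from the *Pax7* locus in satellite cells, deletes *Mymk*, which encodes the fusion protein Myomaker, so that fewer new nuclei join the fibers. The labels give on average 55 nuclei per myofiber for Δ1w, 100 for Δ2w and 233 for Control, values that were counted in another muscle, the extensor digitorum longus. The study counted Δ1w fibers at P28 but Δ2w fibers at a later age than that of the arrays. The *Mymk* alleles, which the labels call 8c, were fl/fl in Δ1w replicates 1 and 8 and LacZ/fl in Δ1w replicate 5 and all Δ2w mice. Control mice lacked *Pax7*CreER and were LacZ/fl (replicates 1 and 6) or fl/fl (replicate 2). An mTmG/+ reporter was recorded in all mice but Δ1w replicate 8. The labels record no tamoxifen for the Control mice, whereas the study's methods give it to all mice.

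Signals are on a log2 scale, on which a difference of 1 is a doubling. They were normalized across arrays, so that a level is relative to the other transcripts of the same muscle and not an amount per nucleus. In bulk muscle, fewer cells of a type and less RNA per cell cannot be told apart. The median of all gene rows was 6.37 to 6.44 by array and that of the negative control probes 5.77 to 6.25, with 90th percentiles of the negative probes of 8.44 to 8.96. Of the 41 genes, 13 were below the 90th percentile of their array's negative probes in all 9 mice, among them *Dkc1* and *Rrs1*, and *Rcl1* was above it in all. Muscle fiber markers, such as *Ckm* and *Acta1*, were bright in every mouse (10 of 10). The log2 of their summed signal was 22.57 to 22.60 in Δ1w, 22.59 to 22.61 in Δ2w and 22.55 to 22.64 in Control muscle, but *Acta1* and *Atp2a1* lay at the highest signal of the arrays (19.88 to 19.93), where a change cannot be read. *Actn3* was at 18.68, 18.51 and 18.43 in Δ1w and 18.97, 18.82 and 18.94 in Control muscle, without overlap (log2 change −0.37, adjusted p = 0.298, limma). In Δ1w and again in Δ2w muscle 3 of the 10 markers, *Actn3*, *Tnni2* and *Pvalb*, were wholly below Control (8.95% and 7.25% of all rows). Δ1w replicates 5 and 8 share a prefix in their sample names and stood apart from the other 7 mice in an index of 11 circadian clock genes (−0.95 and −1.32, against 0.08 to 0.80 in the others). Another prefix is shared by the 3 Δ2w mice and Control replicates 1 and 6. No Δ1w mouse shares a prefix with a mouse of another group, so that prefix and group cannot be told apart for Δ1w. What the prefixes mark is stated nowhere in the labels or the study's methods.

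The upstream sequence of 4 members is shown first. *Rcl1* and *Dkc1* are the genes that fell, and *Nop2* and *Utp18* carry the E-box to which Myc, a known activator of ribosome biogenesis genes, binds. Each run gives the 250 bases before the gene's start (RefSeq, GRCm38.p6), 5′ to 3′ on the strand of the gene. Capitals mark CCAAT in *Rcl1*, TATAAA read from the other strand in *Dkc1*, CACGTG in *Nop2*, and both CCAAT and CACGTG in *Utp18*.
*Rcl1*, chr19:29101125-29101374, plus strand: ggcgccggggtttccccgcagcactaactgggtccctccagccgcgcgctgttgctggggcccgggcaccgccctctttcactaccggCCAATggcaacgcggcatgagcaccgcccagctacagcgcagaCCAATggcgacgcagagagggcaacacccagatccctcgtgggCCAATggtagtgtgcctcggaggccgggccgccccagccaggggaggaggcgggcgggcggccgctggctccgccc
*Dkc1*, chrX:75095604-75095853, plus strand: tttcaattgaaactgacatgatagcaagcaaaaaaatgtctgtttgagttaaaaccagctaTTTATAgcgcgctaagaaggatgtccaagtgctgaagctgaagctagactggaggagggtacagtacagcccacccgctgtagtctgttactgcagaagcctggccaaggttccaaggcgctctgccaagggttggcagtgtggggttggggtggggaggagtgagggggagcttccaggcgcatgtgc
*Nop2*, chr6:125131633-125131882, plus strand: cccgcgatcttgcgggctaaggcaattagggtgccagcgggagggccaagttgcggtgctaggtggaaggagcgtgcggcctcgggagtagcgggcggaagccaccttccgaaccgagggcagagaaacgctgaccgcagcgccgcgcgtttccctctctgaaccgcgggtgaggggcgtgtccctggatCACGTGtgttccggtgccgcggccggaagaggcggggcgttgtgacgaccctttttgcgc
*Utp18*, chr11:93885767-93886016, minus strand: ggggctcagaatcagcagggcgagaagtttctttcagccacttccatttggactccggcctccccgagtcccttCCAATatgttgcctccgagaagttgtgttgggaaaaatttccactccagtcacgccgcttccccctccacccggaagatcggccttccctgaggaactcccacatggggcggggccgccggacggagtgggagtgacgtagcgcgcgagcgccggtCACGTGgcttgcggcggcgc

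The 3 CCAAT runs of *Rcl1* begin 162, 119 and 76 bases before its start, the TATAAA match of *Dkc1* 189 bases, the CACGTG of *Nop2* 60 bases and that of *Utp18* 20 bases before theirs. Motifs were searched on both strands in windows of 300 bases (250 before and 50 after a start), which were given for 32 of the 41 genes. CACGTG was in 7 of the 32 (21.9%), in 18.1% of 94 other ribosome biogenesis genes and in 9.26% of 15691 genes on the array. The 7 are *Nop2*, *Pes1*, *Rrp7a*, *Utp18*, *Utp20*, *Utp25* and *Utp4*. Their median log2 change in Δ1w against Control muscle was −0.04, with a range of −0.30 to 0.15, and that of the 25 without the motif was −0.21. TATAAA was in 9.38% of the members and 14.6% of genes on the array, and CCAAT, which was added after the *Rcl1* sequence had been seen, in 40.6% and 42.2%. Windows with 3 or more CCAAT were found for 6.25% of the members and 4.59% of genes on the array.

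In Δ1w against Control muscle, 2 of the 41 genes fell and 0 rose at an adjusted p under 0.05 (limma, Benjamini-Hochberg over all 22206 rows), and 39 did not pass. The genes that fell were *Rcl1*, an assembly factor of the 40S subunit, and *Dkc1*, the pseudouridine synthase of the box H/ACA snoRNPs. Of all rows on the array, 0.5% were called lower in this comparison. At an unadjusted p under 0.05, 10 of the 41 were lower, against 6.79% of all rows, and 0 were higher. The methods' t-test gave 11 before adjustment (9.7% of all rows) and 0 after it. The median log2 change of the 41 genes was −0.21 and that of all rows was −0.00, and 32 of the 41 lay below 0 (78.0%, against 50.3% of all rows). Each Δ1w mouse was below each Control mouse for 11 genes (26.8%, against 8.95% of all rows) and above for 1, *Utp4* (8.53% of all rows). All of the 41 but *Nop9* had a mean log2 signal of at least 6, and shares were higher among rows that bright. Of these 12119 rows, Δ1w lay wholly below Control in 12.4%, and 52.8% had a change below 0. At an unadjusted p under 0.05, 1186 of them were lower (limma).

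In Δ2w against Control muscle none of the 41 genes passed with limma, where 0.045% of all rows were called. At an unadjusted p under 0.05, 2 were lower (3.49% of all rows), *Rrs1* and *Utp23*, and the methods' t-test gave 4 before adjustment (7.57% of all rows) and 0 after it. The median log2 change was −0.12, and 34 of the 41 lay below 0 (82.9%, against 50.7% of all rows). Groups lay apart for 5 genes below Control (12.2%, against 7.25% of all rows) and for 1 above it (7.52% of all rows). Within the sample name prefix that Δ2w and Control mice share, the median was −0.14 and 0 passed. Between Δ1w and Δ2w, 0 of the 41 passed with limma, where 0.0045% of all rows were called, and 4 were lower in Δ1w at an unadjusted p under 0.05 (3.99% of all rows). The methods' t-test gave 7 before adjustment (6.94% of all rows) and 0 after it. The median difference was −0.08. Each Δ1w mouse was below each Δ2w mouse for 9 genes (22.0%, against 6.97% of all rows) and above for 2, *Nop10* and *Utp4* (7.2% of all rows). For these 2 genes, against 1.97% of all rows, the Δ1w and Δ2w mice lay wholly on opposite sides of the Control mean. The 2 comparisons with Control share its 3 mice.

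**Figure D1:**
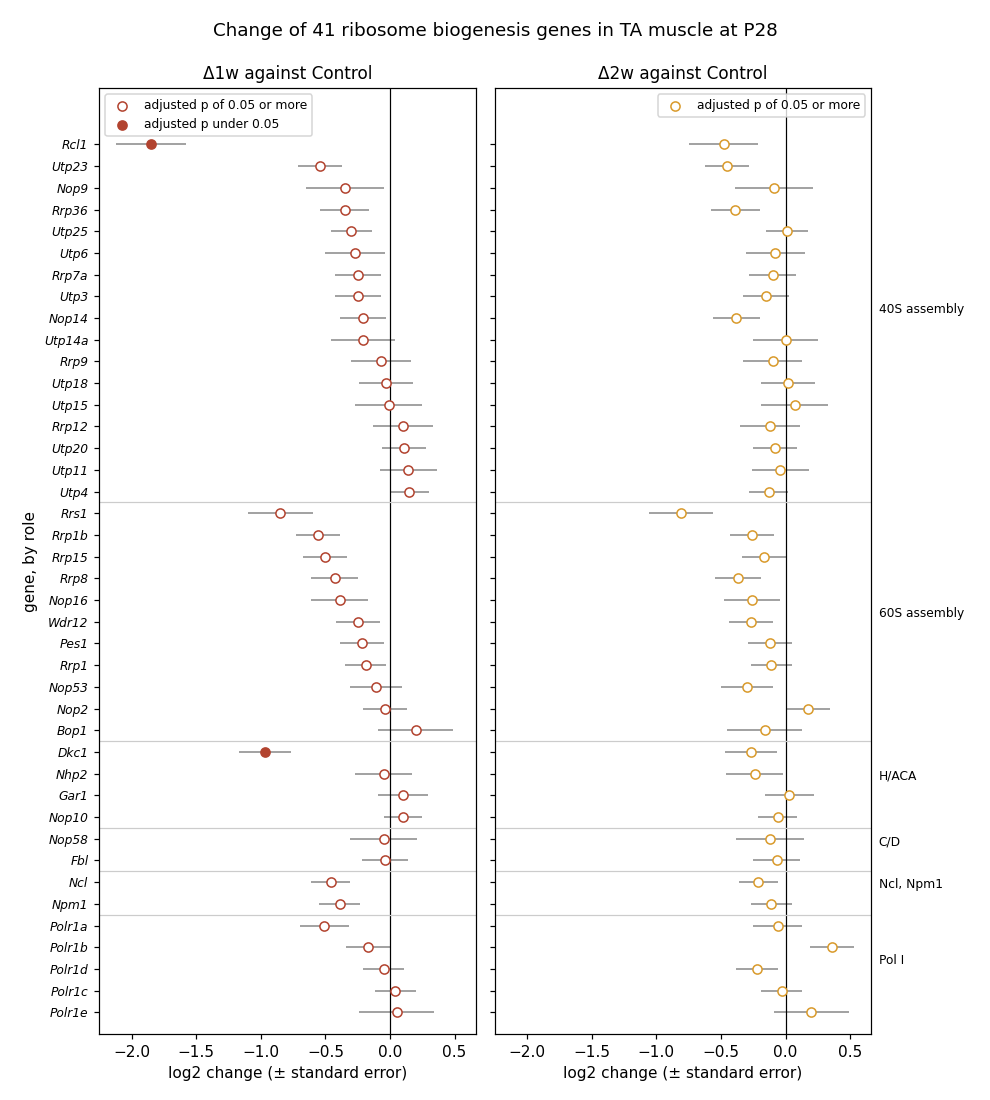
Log2 change of each of the 41 genes (rows, grouped by role) in Δ1w against Control (left) and Δ2w against Control (right), with points for the change and bars for its standard error. Filled points have an adjusted p under 0.05, which only *Rcl1* (−1.85) and *Dkc1* (−0.97) reach, both in Δ1w, and most other points lie just left of 0.

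Averaged over the 41 genes, the log2 signal of a mouse was 9.18 to 9.30 in Δ1w, 9.30 to 9.39 in Δ2w and 9.45 to 9.50 in Control muscle. The Control mice lay above every Δ1w and Δ2w mouse in this mean, while Δ1w and Δ2w met at 9.30. It weighs each gene alike. Summed on the linear scale, where the brightest rows count most, the log2 of the sum was 16.51 to 16.60 in Δ1w, 16.53 to 16.60 in Δ2w and 16.63 to 16.72 in Control muscle.

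*Rcl1* belongs to the small subunit processome and in yeast is brought to it by Bms1 and is needed for an early cut of the precursor. Its log2 signal was 9.71, 8.80 and 9.10 in Δ1w replicates 1, 5 and 8, against 10.84, 10.44 and 10.45 in Δ2w muscle and 10.91, 10.68 and 11.57 in Control muscle. All Δ1w mice were below all others, whereas Δ2w and Control mice overlapped. Δ1w muscle had a 3.61-fold lower signal than Control muscle (log2 change −1.85, standard error 0.27, adjusted p = 0.0073, limma). Among all 22206 rows this was the 14th largest fall, and the 9th among rows called lower. In Δ2w muscle the log2 change was −0.48 (standard error 0.27, adjusted p = 0.729; −0.22 without Control replicate 6 and −0.66 without Control replicate 2), and Δ1w minus Δ2w was −1.38 (standard error 0.27, adjusted p = 0.200). The last difference passed when Δ1w replicate 1 was left out (−1.63, adjusted p = 0.0362, limma). By limma's F-test over the 3 groups, *Rcl1* was the 1 member that passed (adjusted p = 0.0186), where 0.653% of all rows did.

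**Figure D2:**
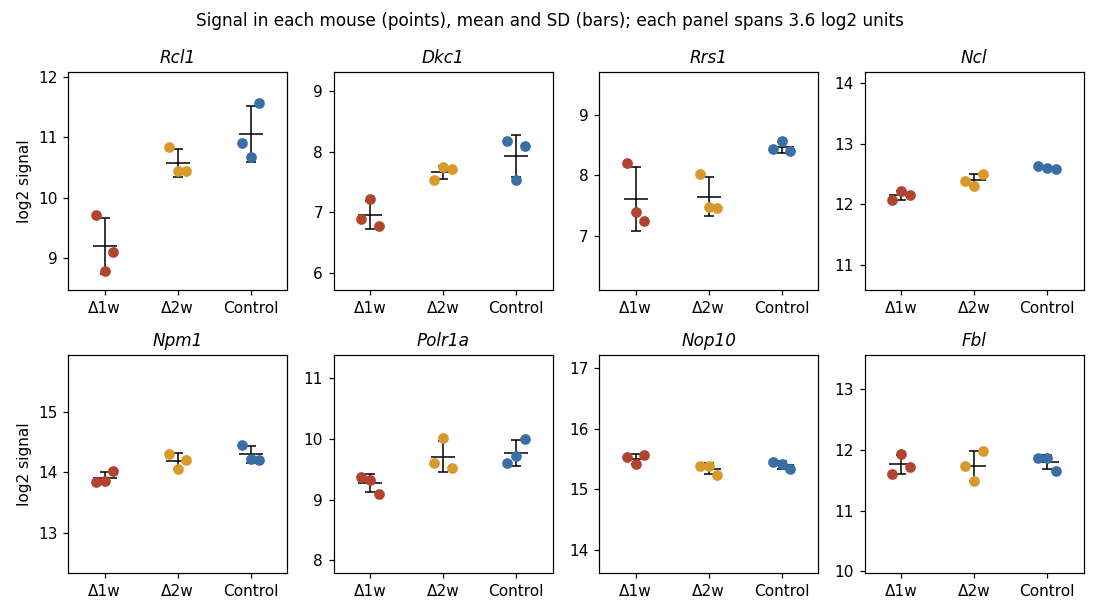
Log2 signal of 8 genes in each mouse (points) with the mean and SD of each group (bars, n = 3), in Δ1w, Δ2w and Control muscle, each panel on an axis of the same length. *Rcl1* and *Dkc1* are low in all Δ1w mice, *Rrs1* is low in Δ1w and Δ2w mice, *Ncl* has 3 narrow and separate groups, and *Nop10* and *Fbl* are nearly level.

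The clock gene index was set beside *Rcl1*. The index is the mean deviation of 11 clock genes, with *Arntl*, *Npas2* and *Clock* counted negative, and was 0.32, −0.95 and −1.32 in Δ1w replicates 1, 5 and 8, against 0.08 to 0.44 in Δ2w and 0.13 to 0.80 in Control mice. The mice with the lowest index, Δ1w replicates 5 and 8, had the lowest *Rcl1* signals, and Control replicate 6, with the highest index, had the highest. Elsewhere the order differed. Δ1w replicate 8, with a lower index than replicate 5, had the higher signal (9.10 against 8.80). Δ2w replicate 3 had the highest index of its group (0.44) and the lowest signal (10.44). No correlation with the index was computed. Δ1w replicate 1, whose index lay within those of the other groups, had an *Rcl1* signal of 9.71, below every Δ2w and Control mouse. As the only Δ1w array, it gave a log2 change of −1.35 (adjusted p = 0.270, limma, the lone array taken to vary like the other groups). With the index as a covariate the change was −1.27 (adjusted p = 0.192, limma). Both settings were chosen after the data had been seen. The labels and the methods give no time of death, and Δ1w replicates 5 and 8 also share the sample name prefix.

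**Figure D3:**
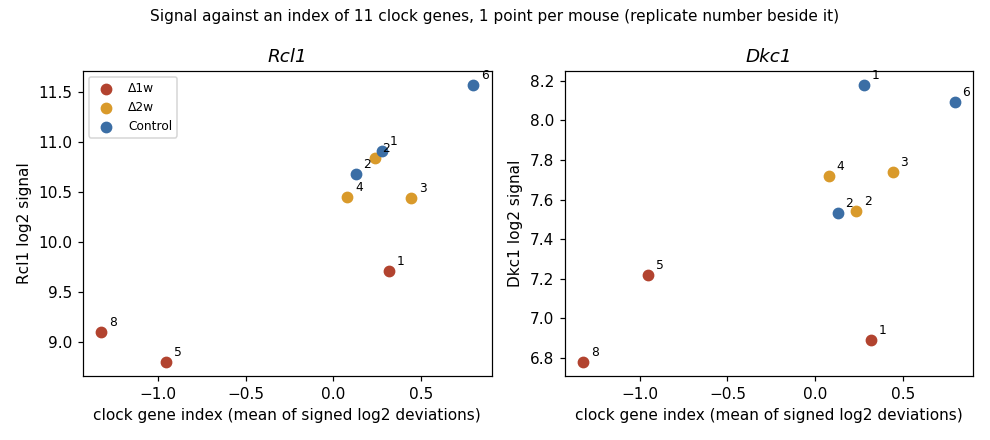
Log2 signal of *Rcl1* (left) and *Dkc1* (right) against the index of 11 clock genes, 1 point per mouse with its replicate number, in Δ1w, Δ2w and Control muscle. Δ1w replicates 5 and 8 lie far left and low, and Δ1w replicate 1 lies at an index of 0.32 among the other groups but below them in both genes.

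Among gene rows with a symbol, those with the highest positive correlation with *Rcl1* over the 9 mice were *Lin9* (Pearson r = 0.971), *Ccdc47* (0.967) and *Tcp11l2* (0.965). Rows without a symbol were not ranked. Of the 41 genes, the highest were *Rrp15* (0.888), *Dkc1* (0.832) and *Rrp1b* (0.806). These values describe 9 arrays, across which the group means differ. *Mir101b*, a microRNA gene, lies inside *Rcl1* on chromosome 19 (29135279 to 29135375, GRCm38.p6), and no row of the array is named for it. *Bms1*, the partner of Rcl1 in yeast, was picked out after its values had been seen. Its log2 signal was 10.52, 10.63 and 10.48 in Δ1w, 10.61, 10.73 and 10.40 in Δ2w and 10.65, 10.61 and 10.63 in Control muscle, and the groups overlapped.

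The other 16 genes of the small subunit processome and 40S assembly did not pass in any comparison. The median log2 change of all 17 was −0.21 in Δ1w and −0.10 in Δ2w muscle, and 13 and 14 of them lay below 0. *Utp23*, a processome factor in yeast, was at 5.95, 6.11 and 5.70 in Δ1w, 6.02, 6.12 and 5.92 in Δ2w and 6.30, 6.50 and 6.60 in Control muscle. Both groups were wholly below Control, with log2 changes of −0.54 (adjusted p = 0.157) and −0.45 (adjusted p = 0.598, limma), at signals near the median of the negative control probes. Of all rows, 8.95% lay wholly below Control in Δ1w and 7.25% in Δ2w muscle. *Utp25* (5.86 to 6.38 over the 9 mice) and *Nop9* (4.78 to 6.11) were as dim, and their log2 changes in Δ1w muscle were −0.30 and −0.35. Log2 changes in Δ1w and Δ2w muscle were −0.35 and −0.39 for *Rrp36*, and −0.21 and −0.38 for *Nop14*, and did not pass. *Utp4*, which in yeast belongs to the subcomplex that joins the growing transcript first, was at 11.24, 11.29 and 11.34 in Δ1w, against 11.10, 10.95 and 10.98 in Δ2w and 11.05, 11.19 and 11.19 in Control muscle. All Δ1w mice were above all others, by a log2 change of 0.15 against Control (adjusted p = 0.721, limma). In Δ1w against Control muscle the log2 change was −0.01 for *Utp15*, of the same yeast subcomplex, −0.03 for *Utp18*, 0.11 for *Utp20*, 0.14 for *Utp11* and 0.10 for *Rrp12*, an export factor of pre-40S particles in yeast, and none of them passed.

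Of the 11 genes of 60S assembly, 0 passed with limma in either group, and 4 were lower in Δ1w muscle at an unadjusted p under 0.05 (6.79% of all rows). Their median log2 change was −0.25 in Δ1w and −0.26 in Δ2w muscle, with 10 of 11 below 0 in each. *Rrs1*, which in yeast helps to load the 5S ribonucleoprotein, was at 8.20, 7.39 and 7.24 in Δ1w, 8.02, 7.47 and 7.46 in Δ2w and 8.43, 8.57 and 8.40 in Control muscle. Both groups were wholly below Control and overlapped each other. Of all rows, Δ1w lay wholly below Control in 8.95% and Δ2w in 7.25%, and the share with both was not counted. The log2 change was −0.85 in Δ1w (standard error 0.25, adjusted p = 0.133) and −0.81 in Δ2w muscle (standard error 0.25, adjusted p = 0.519, limma). The first passed without Δ1w replicate 1 (−1.15, adjusted p = 0.0183, limma), and with that mouse as the only Δ1w array it was −0.26. With the clock gene index as a covariate, the change was −0.37 in Δ1w and −0.74 in Δ2w muscle (adjusted p = 0.802 and 0.469, limma). *Rrp1b* was at 7.21, 7.47 and 7.06 in Δ1w, 7.63, 7.39 and 7.64 in Δ2w and 7.82, 7.67 and 7.94 in Control muscle, again with both groups wholly below Control (log2 changes −0.56 and −0.26, adjusted p = 0.146 and 0.771, limma).

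*Rrp15*, whose yeast form acts in 60S maturation, was at 6.58, 6.62 and 6.64 in Δ1w, 7.01, 6.92 and 6.90 in Δ2w and 7.17, 6.79 and 7.36 in Control muscle. Δ1w mice were wholly below the others, by −0.50 against Control (adjusted p = 0.211, limma). *Rrp8*, a methyltransferase of the large ribosomal RNA, had log2 changes of −0.43 in Δ1w and −0.37 in Δ2w muscle (adjusted p = 0.326 and 0.704, limma). The PeBoW complex, which is needed for maturation of the large subunit RNAs, held no gene that passed. In Δ1w muscle the log2 change was −0.22 for *Pes1*, −0.25 for *Wdr12* and 0.20 for *Bop1*, whose Control signals were as far apart as 6.83 and 8.12. *Nop2*, a methyltransferase of the large subunit RNA, was at −0.04 in Δ1w and 0.17 in Δ2w muscle, and *Nop53* at −0.11 and −0.30.

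The box H/ACA snoRNPs guide pseudouridylation through dyskerin, the product of *Dkc1*, and its partners Gar1, Nhp2 and Nop10. *Dkc1* was at 6.89, 7.22 and 6.78 in Δ1w, against 7.54, 7.74 and 7.72 in Δ2w muscle and 8.18, 7.53 and 8.09 in Control muscle. All Δ1w mice were below all others, and Control replicate 2 lay as low as the lowest Δ2w mouse. Δ1w muscle had a 1.96-fold lower signal than Control muscle (log2 change −0.97, standard error 0.20, adjusted p = 0.0418, limma). The change was −0.27 in Δ2w muscle (adjusted p = 0.807, limma), with −0.15 when Control replicate 1 was left out and −0.47 when Control replicate 2 was. Δ1w minus Δ2w was −0.70 (adjusted p = 0.409, limma). With the LacZ allele as a covariate, the change was −0.80 in Δ1w and −0.43 in Δ2w muscle (adjusted p = 0.0395 and 0.663, limma). Δ1w minus Δ2w was then −0.37 (adjusted p = 0.561, limma). The call in Δ1w muscle held in 7 of 18 alternative settings (adjusted p 0.0227 to 0.429), and was lost on leaving out any 1 of 8 of the 9 mice. It was also lost with the clock gene index as a covariate (−0.90, adjusted p = 0.386) and with Δ1w replicate 1 alone in its group (−1.05, adjusted p = 0.293, limma). The *Dkc1* signals of all 9 mice, Control mice included, lie above the median of the negative control probes and below their 90th percentile.

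The partners of *Dkc1* did not pass. *Nop10* was at 15.53, 15.41 and 15.57 in Δ1w, 15.39, 15.38 and 15.23 in Δ2w and 15.45, 15.41 and 15.34 in Control muscle, a log2 change of 0.10 in Δ1w. The log2 change in Δ1w muscle was 0.10 for *Gar1* (adjusted p = 0.872) and −0.05 for *Nhp2* (adjusted p = 0.953, limma). That their changes differ from that of *Dkc1* was not tested. Among the box C/D snoRNP proteins, which guide ribose methylation, the methyltransferase *Fbl* was at 11.61, 11.93 and 11.72 in Δ1w, 11.73, 11.48 and 11.98 in Δ2w and 11.86, 11.87 and 11.66 in Control muscle. The groups overlapped, with a log2 change of −0.04 (standard error 0.18) in Δ1w and −0.07 in Δ2w muscle. For *Nop58*, of the same particle, these values were −0.05 and −0.12.

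*Ncl* and *Npm1* encode nucleolin and nucleophosmin, abundant proteins of the nucleolus. *Ncl* was at 12.08, 12.23 and 12.15 in Δ1w, 12.39, 12.30 and 12.50 in Δ2w and 12.64, 12.60 and 12.59 in Control muscle. The 3 groups did not overlap. Of all rows, Δ1w lay wholly below Control in 8.95%, Δ2w below Control in 7.25% and Δ1w below Δ2w in 6.97%. The share of rows with all of these at once was not counted. The log2 change of *Ncl* was −0.46 in Δ1w (standard error 0.15, adjusted p = 0.178) and −0.21 in Δ2w muscle (standard error 0.15, adjusted p = 0.790, limma), and neither passed. *Npm1* was at 13.84, 13.86 and 14.03 in Δ1w, 14.31, 14.06 and 14.21 in Δ2w and 14.45, 14.22 and 14.21 in Control muscle. Its Δ1w mice were below all others, by −0.39 against Control (standard error 0.16, adjusted p = 0.303, limma), and Δ2w overlapped with Control.

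**Figure D4:**
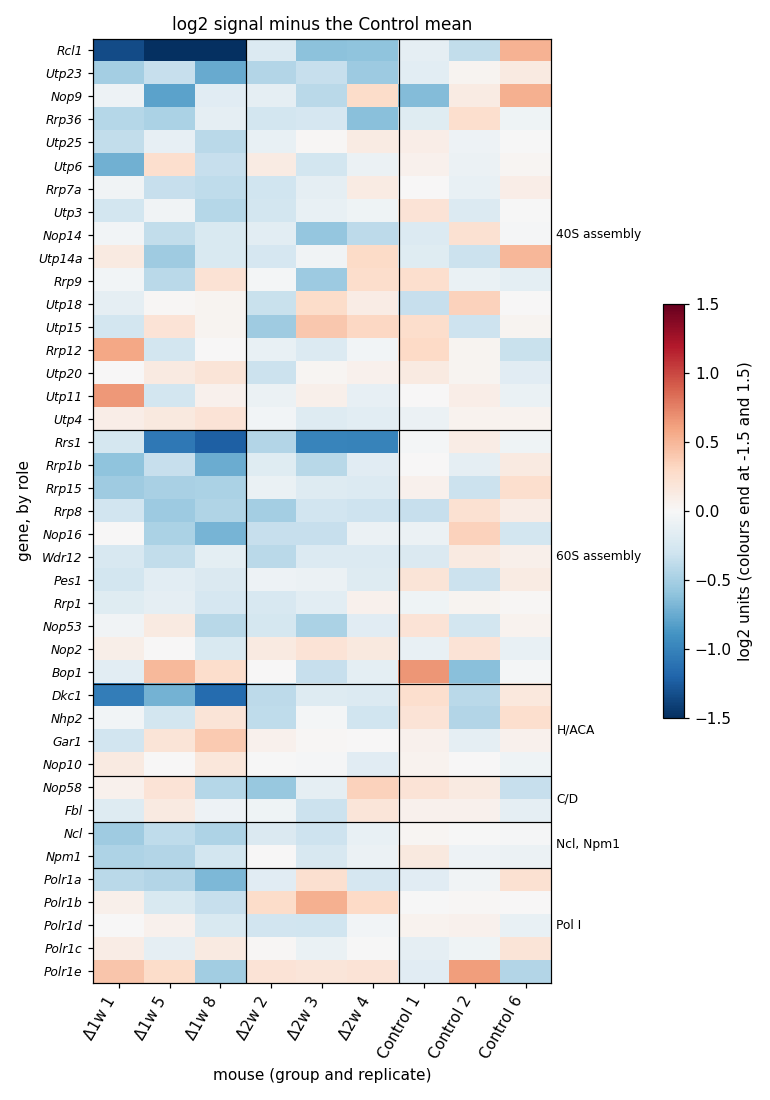
Log2 signal minus the Control mean for each of the 41 genes (rows, grouped by role) in each mouse (columns, Δ1w, Δ2w and Control), blue below and red above. *Rcl1*, *Dkc1* and *Rrs1* hold the darkest blue, *Ncl* and *Npm1* are evenly pale blue in the Δ1w mice, and single red cells such as *Rrp12* and *Utp11* in Δ1w replicate 1 belong to 1 mouse.

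Of the 5 RNA polymerase I subunits named Polr1, 0 passed with limma in any comparison, and at an unadjusted p under 0.05 1 was lower in Δ1w than in Control muscle (6.79% of all rows) and 2, *Polr1a* and *Polr1b*, were lower in Δ1w than in Δ2w muscle (3.99% of all rows). The first was *Polr1a*, the largest subunit, at 9.37, 9.33 and 9.10 in Δ1w, 9.60, 10.01 and 9.52 in Δ2w and 9.60, 9.72 and 10 in Control muscle. Its Δ1w mice were below all others (log2 change −0.51, standard error 0.19, adjusted p = 0.244, limma). *Polr1b*, which forms the active centre with Polr1a, was at 8.78, 8.47 and 8.35 in Δ1w, 8.97, 9.23 and 9.0 in Δ2w and 8.69, 8.72 and 8.71 in Control muscle. Here the Δ2w mice were above all others, by 0.36 against Control (adjusted p = 0.672), and Δ1w minus Δ2w was −0.54 (adjusted p = 0.442, limma). *Polr1c* and *Polr1d*, which RNA polymerase III also uses, had log2 changes of 0.04 and −0.05 in Δ1w muscle, and *Polr1e* of 0.05 with a standard error of 0.29. Subunits listed under older names were *Twistnb* (−0.29 in Δ1w and 0.04 in Δ2w), *Cd3eap* (0.01 and 0.02, at signals of 4.81 to 5.43, below the negative control median) and *Znrd1* (0.25 and −0.09).

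Other genes of ribosome biogenesis were taken from a list of 121 symbols, of which 113 were measured. In Δ1w muscle 0 passed with limma in either direction, 13 were lower (6.79% of all rows) and 2 higher (7.2% of all rows) at an unadjusted p under 0.05, and the median log2 change was −0.14. In Δ2w muscle 0 passed, 5 were lower (3.49% of all rows) and 3 higher (3.98% of all rows) at an unadjusted p under 0.05, and the median was −0.06. The lowest in Δ1w muscle was *Krr1*, a processome factor, at 7.54, 7.68 and 7.70 in Δ1w, 7.74, 7.78 and 7.43 in Δ2w and 8.38, 8.12 and 8.20 in Control muscle, with both groups wholly below Control (log2 changes −0.59 and −0.58, adjusted p = 0.114 and 0.466, limma). *Exosc10*, a nuclease of the nuclear exosome, and *Gnl3l* followed, both at −0.56. The highest were *Ddx56*, a helicase, at 0.58 (adjusted p = 0.205), the processome factor *Pwp2* at 0.49 (adjusted p = 0.184) and *Urb2* at 0.40 (adjusted p = 0.376, limma). The transcription factors of RNA polymerase I *Ubtf* and *Rrn3* had log2 changes of −0.21 and −0.30 in Δ1w muscle (adjusted p = 0.644 and 0.536, limma). That of *Myc* was −0.17 (adjusted p = 0.779, limma). All Δ1w mice were below all Control mice for *Ubtf* and *Rrn3* but not for *Myc*. Of the 113 genes, 20 lay apart in this way (17.7%, against 8.95% of all rows).

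Fibroblast markers were above Control in both groups, by a median log2 change of 1.11 in Δ1w and 0.58 in Δ2w muscle, with all 6 measured of 7 above 0 in each. In Δ1w muscle 1, *Dpt*, passed (adjusted p = 0.027, limma), where 201 of 22206 rows were called higher. All 6 were higher there at an unadjusted p under 0.05 (7.2% of all rows). In Δ2w muscle 0 passed, and 2 of the 6 markers were higher at an unadjusted p under 0.05 (3.98% of all rows). The log2 of their summed signal was 18.42 to 19.37 in Δ1w, 18.27 to 18.69 in Δ2w and 17.61 to 18.34 in Control muscle. Satellite cell markers had a median log2 change of −0.42 in Δ1w and −0.56 in Δ2w muscle (8 of 8 measured), with a summed signal of 14.71 to 15.77 in Δ1w, 14.95 to 15.47 in Δ2w and 14.65 to 14.94 in Control muscle. *Cd34*, at log2 changes of 0.43 and 0.44, makes up most of this sum, which runs against the median. At an unadjusted p under 0.05 with limma, 3 of 8 were lower in Δ1w (6.79% of all rows) and 5 in Δ2w muscle (3.49%). *Fgfr4* alone passed, in Δ1w muscle, where 0.5% of all rows were called lower (log2 change −1.83, adjusted p = 0.0126, limma). Its change in Δ2w muscle was −1.73 (adjusted p = 0.0747, limma). *Fgfr4* was below the negative control median in all mice but Control replicate 6. *Pax7* itself was at 4.36 to 5.16, below the negative control median in all mice. None of 7 proliferation markers passed in either group with limma, and 0 had an unadjusted p under 0.05. The part of these cells in the changes of *Rcl1*, *Dkc1* and the other genes was not tested.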

How the data were processed

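Each of 9 mice, 3 per group, was measured on 1 Clariom S Mouse array. The deposited values are log2 signals, which the authors obtained by sst-rma (background adjustment, normalization across arrays and summary of probes to genes). Affymetrix Expression Console is named in the submitters' processing notes. The depositors' table holds 28846 rows. Its 6640 control probes were left out of the tests, and 19572 of the 22206 gene rows have 1 symbol in the platform annotation. A single linear model held all 9 arrays (lmFit and eBayes of limma 3.58.1, R 4.3.3), with Benjamini-Hochberg adjustment over the 22206 rows, and a gene passed at an adjusted p under 0.05. p-values are two-sided. Precision is limited by having 3 arrays in each group.

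The 41 genes and all lists were chosen with earlier results of these data known, among them that *Rcl1* was one of the largest falls, so their counts are a description. Genes are named by a rule: those that passed, the 8 largest changes each way against Control, the 4 largest differences each way between Δ1w and Δ2w, the 3 brightest and 3 dimmest, textbook members, and the 3 largest changes each way of the 113 other genes in Δ1w muscle. Genes outside it are given as examples of their role. Upstream sequences and coordinates are RefSeq's for GRCm38.p6, to which all 41 genes matched. No source used here states the build behind the array annotation.

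In the alternatives each mouse was left out in turn, arrays were quantile normalized again or centred on their medians, rows under a mean log2 signal of 6 were dropped, eBayes was run with trend and robust options, and arrays were weighted. Further ones fitted only the 2 groups compared, took the sample name prefix as a random block or stayed within the prefix that Δ2w and Control share, added the LacZ allele as a covariate, or used the unpaired t-test that the methods name in general. The fit was tested on simulated data. Figures were drawn with matplotlib 3.10.9.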

Additional observations from a re-analysis of the deposited data

Results flagged for a closer look

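The Δ1w and Δ2w mice lay on opposite sides of the Control mean for 2 of the 41 genes, as they did for 1.97% of all rows. *Nop10*, a box H/ACA snoRNP protein, was above it by 0.13, 0.01 and 0.17 on the log2 scale in the 3 Δ1w mice, and the 3 Δ2w mice were at −0.01, −0.02 and −0.16. Δ1w minus Δ2w was 0.17 (adjusted p = 0.819, limma). *Utp4*, of the small subunit processome, was above the Control mean by 0.10, 0.15 and 0.20 in Δ1w mice, and Δ2w mice were at −0.05, −0.20 and −0.16. Δ1w minus Δ2w was 0.28 (adjusted p = 0.651, limma). Both differences missed the threshold, and 3 of the *Nop10* offsets were within 0.02 of the Control mean.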

How the results depend on the processing

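In Δ1w against Control muscle 2 of the 41 genes passed. The count was 1 to 2 when single mice were left out, 1 with only the 2 groups compared, 1 with the sample name prefix as a random block, and 0 with the methods' t-test after adjustment (11 before it, where it called 9.7% of all rows), and *Rcl1* was the gene that stayed wherever 1 did. With Δ1w replicate 1 standing alone for its group it was 0, and with the clock gene index as a covariate 0, both settings chosen after seeing the data. In Δ2w against Control muscle 0 passed, and 4 did with the methods' t-test before adjustment (7.57% of all rows). Between Δ1w and Δ2w, 0 to 1 passed when single mice were left out (*Rcl1*, without Δ1w replicate 1), and 7 did with the methods' t-test before adjustment (6.94% of all rows). No Δ1w mouse shares a sample name prefix with another group, so the random block cannot separate prefix from group in the Δ1w comparisons.

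The median log2 change of the 41 genes ranged over the alternatives between −0.25 and −0.15 in Δ1w and between −0.19 and −0.10 in Δ2w muscle, where −0.19 came without Δ2w replicate 4. For Δ1w against Δ2w it ranged between −0.13 and 0.00, with 0.00 with Δ1w replicate 1 alone. Leaving out single mice gave −0.21 to −0.17 for Δ1w against Control, −0.19 to −0.10 for Δ2w against Control and −0.13 to −0.04 for Δ1w against Δ2w. No change of a named gene that had passed turned its direction. The causes of these differences were not tested. No paired analysis was run, because the labels name no pairs of mice across groups. No Δ1w mouse shares a sample name prefix with a Control mouse. Each of the 41 genes has 1 row, so that averaging rows of a symbol could give no other value.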
